A study of Homo sapiens with 9 samples.

Results

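The epidermal growth factor (EGF) receptor system was described here by 9 genes, chosen by name with earlier results of these data known. They were the ligands HBEGF, AREG, EREG, TGFA and BTC, the receptors EGFR, ERBB2 and ERBB3, and the feedback inhibitor ERRFI1. All 9 were found among the 60664 genes with counts in every sample, and all 9 were among the 18264 genes with enough counts to be tested. RNA was sequenced from the human breast cancer line MDA-MB-231 on day 6, in 9 samples that form 3 groups of 3. These were cells with a scramble control hairpin (SC) in medium of 0.77 cP, SC cells in medium of 8 cP, and shTRPV4 cells in medium of 8 cP. The medium was IMDM with fetal bovine serum, and its viscosity was raised with methylcellulose. All cells carried a lentiviral hairpin construct, either the scramble sequence or a hairpin against TRPV4, a calcium-permeable ion channel. Both were stable lines of 1 parental cell line, and shTRPV4 cells at 0.77 cP were not analysed here, so the knockdown was compared at 8 cP only. These samples hold 1 hairpin against TRPV4. An effect of losing TRPV4 therefore cannot be told apart from another difference between the lines. The words "with the knockdown" name only the comparison of shTRPV4 with SC cells at 8 cP. The study's methods describe its experiments in general as independent biological replicates, but neither they nor the labels say for these RNA samples whether those of a group were separate cultures, so the p-values measure the spread between these samples, which may be technical.

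The ligands of this family are made as membrane-spanning precursors. Metalloproteases of the ADAM family cut the precursors and release the soluble growth factor, which binds EGFR on the same or a neighbouring cell. Bound EGFR pairs with a second EGFR, with ERBB2, which has no known ligand of its own, or with ERBB3, whose kinase is weak, and signals through the RAS-ERK and PI3K-AKT routes. Several of the ligands and ERRFI1, also called MIG6, are themselves switched on by this signal, the ligands as a feed-forward arm and ERRFI1 as a brake that binds the EGFR kinase and blocks it. MDA-MB-231 cells are known to express EGFR and to lack oestrogen and progesterone receptors and an amplified ERBB2.

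The samples held between 64571681 and 103518036 counts. TRPV4, the target of the hairpin, had 40, 28 and 54 counts in SC cells at 0.77 cP, 64, 45 and 24 in SC cells at 8 cP, and 7, 1 and 13 in shTRPV4 cells, and its difference between the groups at 8 cP was −2.51 ± 0.49 on the log2 scale (SE, adjusted p = 0.00219, edgeR). Of 6 epithelial markers, 5 were tested and CDH1 was near 0, with 3 to 12 counts a sample. The summed level of the 6 was 2923 to 3251 CPM (counts per unit of scaled library size) in SC cells at 0.77 cP, 2344 to 2558 CPM in SC cells at 8 cP and 2333 to 2778 CPM in shTRPV4 cells. The hormone receptors ESR1 and PGR had 0 to 4 counts. Of 7 markers of leukocytes, endothelium and fibroblasts, 4 were tested, CD3E had 0 to 6 counts and CDH5 0 or 1. Their summed level was 15.9 to 19.1 CPM in SC cells at 0.77 cP, 11.7 to 12.8 CPM in SC cells at 8 cP and 11.4 to 12.5 CPM in shTRPV4 cells, and the part of these marker shifts in the results was not tested.

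Levels are given as CPM scaled by the TMM method. Differences are log2 fold changes from edgeR's quasi-likelihood test over all 9 samples, with the standard error (SE) and a p-value adjusted by the Benjamini-Hochberg method over all 18264 genes, and a gene was called at an adjusted p below 0.05. Of all genes tested, 19.3% were called for viscosity in SC cells (9.57% rose and 9.69% fell from 0.77 to 8 cP). Between shTRPV4 and SC cells at 8 cP, 20.0% were called (9.02% higher and 11.0% lower in shTRPV4 cells). For both steps together, shTRPV4 cells at 8 cP set against SC cells at 0.77 cP, 42.4% were called (20.4% higher and 22.0% lower in shTRPV4 cells). The viscosity share came from 3518 genes, which were 1409, 1927 and 1418 without replicate 1 or 2 of SC cells at 0.77 cP or replicate 3 of SC cells at 8 cP, and the knockdown share from 3649 genes, which were 2361 and 2179 without replicate 1 or 2 of SC cells at 8 cP. The first and second comparisons share the SC samples at 8 cP, and on the fitted log2 scale the third is their sum, so the 3 are not independent. In bulk RNA, fewer cells that make a transcript and less of it in each cell cannot be told apart.

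At 8 cP, 5 of the 9 members were lower in SC cells than at 0.77 cP: the ligands AREG, HBEGF and EREG, the inhibitor ERRFI1 and the receptor ERBB3. None was called higher (0 also with DESeq2, and 1, EGFR, at an unadjusted p below 0.05). The median log2 fold change of the 9 was −0.20, against −0.0065 over all genes tested. Between shTRPV4 and SC cells at 8 cP, 5 members were called: AREG, EREG, TGFA and ERRFI1 lower and HBEGF higher in shTRPV4 cells. The median of the 9 was −0.13, against 0.00064 over all genes. From SC cells at 0.77 cP to shTRPV4 cells at 8 cP, 6 members were called: AREG, ERRFI1, EREG, HBEGF and ERBB3 lower, and EGFR higher, with a median of −0.29 against −0.011 over all genes. The first count was 3, and no longer held ERBB3 and EREG, without replicate 1 or 2 of SC cells at 0.77 cP or replicate 2 or 3 of SC cells at 8 cP. The second count was 3 without replicate 2 of SC cells at 8 cP. The 5, 5 and 6 called of the 9 stand beside 19.3%, 20.0% and 42.4% of all genes tested. In the same comparisons 9.69%, 11.0% and 22.0% of all genes were called lower. Since the members were chosen with earlier results of these data known, their counts and medians are not independent evidence of a direction.

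**Figure D1:**
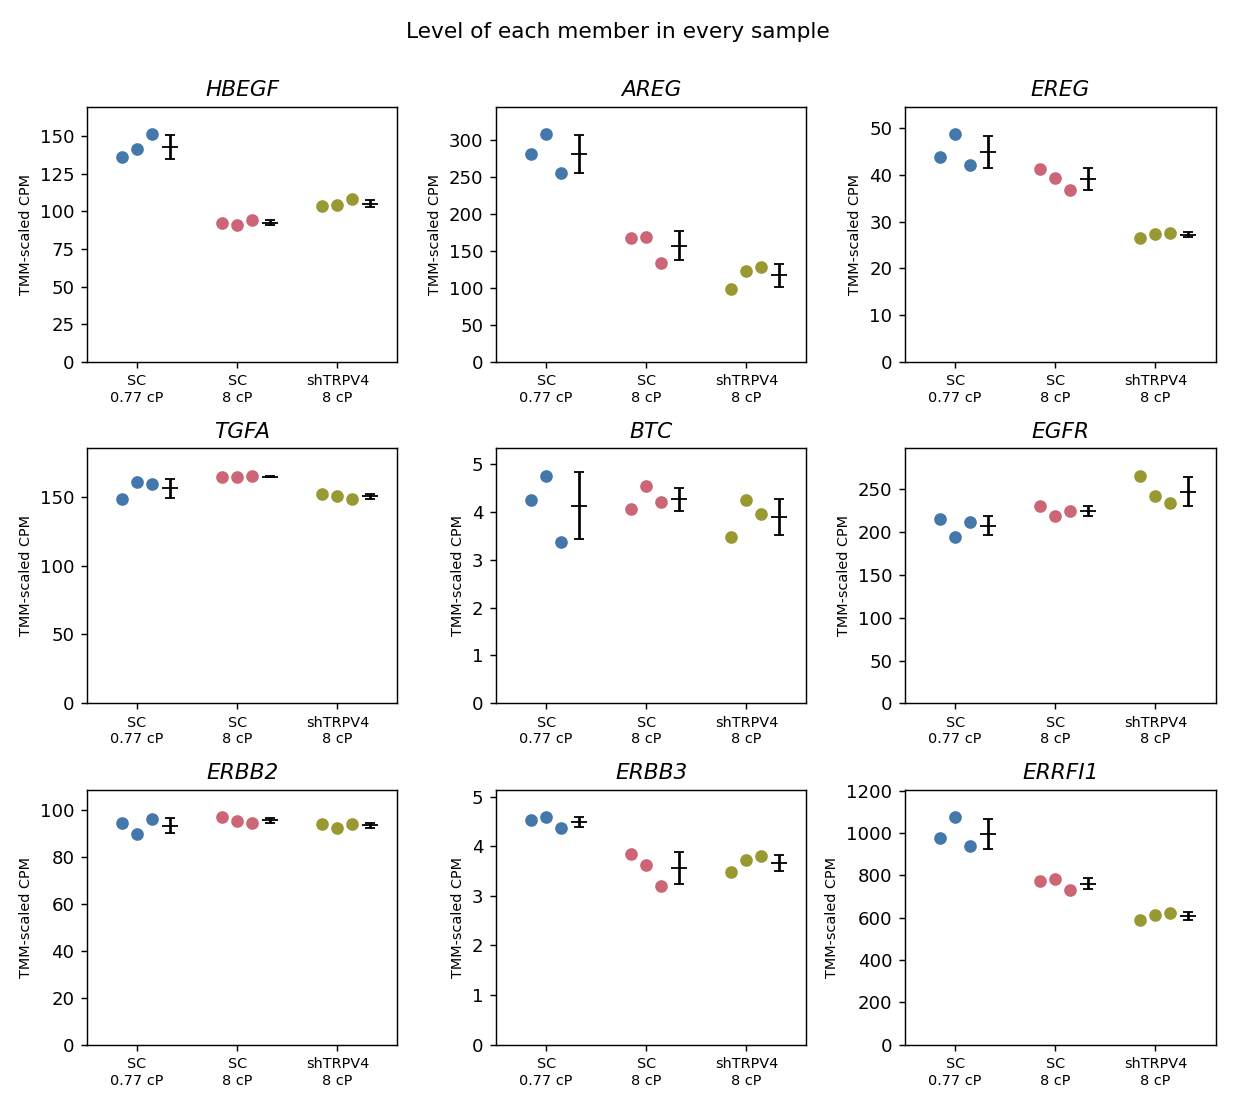
TMM-scaled CPM of the 9 members in every sample (points, replicates 1 to 3 from left to right), with the mean and SD of each group of 3 samples (black bar) and axes that start at 0. AREG and ERRFI1 step down from group to group, HBEGF falls at 8 cP and lies between 103 and 108 CPM in shTRPV4 cells, and EREG is lowest in shTRPV4 cells, at 26.6 to 27.6 CPM.

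**Figure D2:**
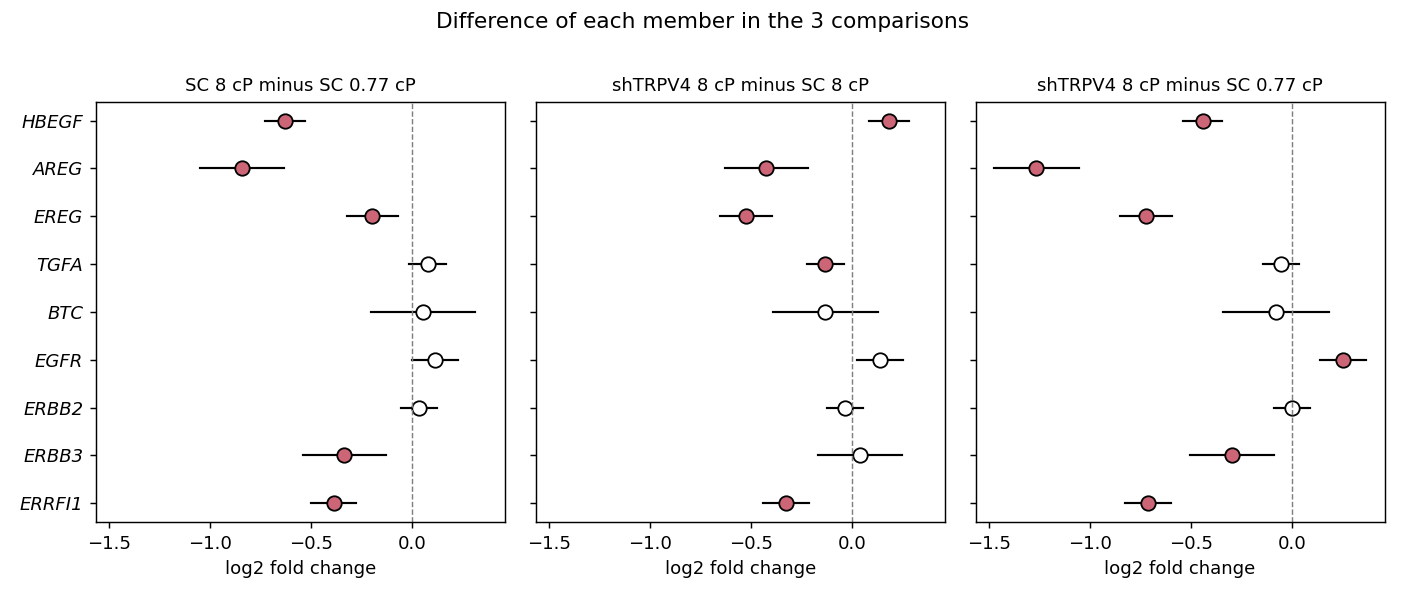
Log2 fold change of each member in the 3 comparisons (circles) with the 95% confidence interval of the fit (lines). Filled circles were called over all genes tested, and AREG has the largest fall from SC cells at 0.77 cP to shTRPV4 cells at 8 cP, at −1.27.

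AREG, EREG and BTC lie in 1 stretch of chromosome 4 together with EPGN, another ligand of EGFR. The stretch runs from 74308470 to 74794523 (GRCh38, GENCODE 44), spans 486 kb and holds 4 protein-coding genes. EREG (ENSG00000124882, 74365145 to 74388749, plus strand) and AREG (ENSG00000109321, 74445136 to 74455005, plus strand) are 56.4 kb apart. BTC (ENSG00000174808, 74744759 to 74794523, minus strand) lies 290 kb beyond AREG. HBEGF (ENSG00000113070) is on chromosome 5 from 140332843 to 140346603, minus strand, TGFA (ENSG00000163235) on chromosome 2 from 70447284 to 70554193, minus strand, and ERRFI1 (ENSG00000116285) on chromosome 1 from 8004404 to 8026309, minus strand. The receptors EGFR (ENSG00000146648, chromosome 7, 55019017 to 55211628), ERBB2 (ENSG00000141736, chromosome 17, 39687914 to 39730426) and ERBB3 (ENSG00000065361, chromosome 12, 56076799 to 56103505) are all on plus strands.

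The 250 bases before the start of the 4 members that were called with a change of 0.5 or more on the log2 scale are shown (RefSeq, GRCh38.p14), since these 4 genes carry most of the differences described. Each is written from 5′ to 3′ in the direction of its gene. Capitals mark matches on either strand to AP-1 (TGANTCA), the cAMP response element (TGACGTCA), the TEAD element (GGAATG) or the TATA box (TATAAA).
HBEGF, chr5:140346604-140346853, minus strand: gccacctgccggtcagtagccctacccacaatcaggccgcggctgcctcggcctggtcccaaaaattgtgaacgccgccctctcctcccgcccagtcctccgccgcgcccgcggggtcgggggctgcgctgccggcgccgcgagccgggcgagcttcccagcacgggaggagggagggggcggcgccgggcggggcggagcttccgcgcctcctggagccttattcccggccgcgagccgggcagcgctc
AREG, chr4:74444886-74445135, plus strand: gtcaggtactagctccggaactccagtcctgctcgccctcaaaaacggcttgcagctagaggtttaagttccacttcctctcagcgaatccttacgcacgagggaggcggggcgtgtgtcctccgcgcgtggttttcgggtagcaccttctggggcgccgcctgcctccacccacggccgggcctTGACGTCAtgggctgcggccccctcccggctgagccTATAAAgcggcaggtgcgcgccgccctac
EREG, chr4:74364895-74365144, plus strand: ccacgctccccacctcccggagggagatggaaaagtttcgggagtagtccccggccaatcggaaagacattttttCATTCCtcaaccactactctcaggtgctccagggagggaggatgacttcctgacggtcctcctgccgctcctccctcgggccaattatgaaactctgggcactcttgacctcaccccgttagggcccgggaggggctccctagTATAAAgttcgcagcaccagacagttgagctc
ERRFI1, chr1:8026310-8026559, minus strand: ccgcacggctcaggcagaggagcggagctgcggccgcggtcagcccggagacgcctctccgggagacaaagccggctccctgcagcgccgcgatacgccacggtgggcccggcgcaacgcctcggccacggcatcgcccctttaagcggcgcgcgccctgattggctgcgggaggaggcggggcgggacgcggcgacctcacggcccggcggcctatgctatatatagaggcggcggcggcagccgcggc

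The AREG promoter held a cAMP response element 65 to 58 bases before the start and a TATA box 29 to 24 bases before it. The EREG promoter held a TATA box at nearly the same place, 32 to 27 bases before the start, and a TEAD element on the other strand 175 to 170 bases before it. The windows of HBEGF and ERRFI1 held no match to the 4 motifs as searched. They were richer in G and C, at 76.4% and 75.2%, than those of AREG and EREG, at 65.2% and 58.0%. The search for a TATA box took only TATAAA, and the ERRFI1 window holds the letters tatatata near its end. Among 35116 promoter windows of the same length, 1.65% held the cAMP response element, 6.57% AP-1, 11.9% the TEAD element and 10.7% the TATA box. Windows were found for 8 of the 9 members. The first window of EGFR, both windows of TGFA and that of BTC held none of the 4 motifs, and that of ERBB2 held 1 match to AP-1. A second EGFR window, at a start within the gene, held 2 matches to AP-1, 2 to the TATA box and 1 to the TEAD element. Such matches describe the letters only.

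AREG, amphiregulin, a ligand that binds EGFR with low affinity, had the largest fall of the 9 members with viscosity and across both steps. It was at 281, 308 and 256 CPM in SC cells at 0.77 cP, at 168, 169 and 134 CPM in SC cells at 8 cP, and at 99.3, 123 and 129 CPM in shTRPV4 cells at 8 cP. Every sample at 8 cP was below every sample at 0.77 cP, and every shTRPV4 sample was below every SC sample at 8 cP, although by little between SC replicate 3 and shTRPV4 replicate 3. The mean fell by 44.2% from 0.77 to 8 cP in SC cells, with a log2 fold change of −0.84 ± 0.097 (SE, adjusted p = 5.02e-05). In shTRPV4 cells it was lower again by −0.42 ± 0.097 on the log2 scale (adjusted p = 0.00638). Across both steps the log2 fold change was −1.27 ± 0.098 (adjusted p = 1.42e-07), from a mean of 282 ± 25.9 CPM to 117 ± 15.8 CPM (n = 3, SD). AREG varied more between replicates than most members, by 9.18% to 13.5% of its mean, and each of its 3 calls stood whichever 1 sample was left out.

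EREG, epiregulin, a ligand of EGFR and ERBB4 encoded next to AREG, was divided among the steps in another way. It was at 43.8, 48.7 and 42.0 CPM in SC cells at 0.77 cP, at 41.2, 39.3 and 36.7 CPM in SC cells at 8 cP, and at 26.6, 27.3 and 27.6 CPM in shTRPV4 cells. The SC groups nearly touched, with the lowest sample at 0.77 cP just above the highest at 8 cP, while the shTRPV4 samples lay far below both. The change with viscosity in SC cells was −0.20 ± 0.060 (adjusted p = 0.0316), and it was not called without replicate 1 or 2 of SC cells at 0.77 cP (adjusted p = 0.0792 and 0.184) or without replicate 2 or 3 of SC cells at 8 cP (adjusted p = 0.0854 and 0.182). Without replicate 2 at 0.77 cP the log2 fold change was −0.13, and without replicate 3 at 8 cP it was −0.14. The change with TRPV4 knockdown was −0.53 ± 0.061 (adjusted p = 2.42e-05) and the mean fell by 30.5%. Across both steps EREG fell by 0.72 ± 0.061 on the log2 scale (adjusted p = 3.14e-07), and these last 2 calls stood whichever 1 sample was left out.

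HBEGF, heparin-binding EGF-like growth factor, was the member that moved down with viscosity and up with the knockdown. It was at 136, 141 and 151 CPM in SC cells at 0.77 cP, at 92.1, 91.3 and 94.2 CPM in SC cells at 8 cP, and at 103, 104.4 and 108 CPM in shTRPV4 cells at 8 cP. The 3 groups did not overlap, and the shTRPV4 samples lay between the SC groups, nearer to those at 8 cP. The mean fell by 35.3% with viscosity, a log2 fold change of −0.63 ± 0.046 (adjusted p = 2.68e-07). With the knockdown it was 13.8% higher, 0.19 ± 0.046 on the log2 scale (adjusted p = 0.0105), and this call was lost without replicate 2 of SC cells at 8 cP (adjusted p = 0.0633, log2 fold change 0.17). It remained below SC cells at 0.77 cP by −0.44 ± 0.046 (adjusted p = 2.86e-06). A change down and then back up has the SC samples at 8 cP in both comparisons, so these are not separate observations.

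TGFA, transforming growth factor alpha, changed little. It was at 148, 160 and 159 CPM in SC cells at 0.77 cP, at 164, 164 and 165 CPM in SC cells at 8 cP, and at 152, 151 and 148 CPM in shTRPV4 cells. The viscosity comparison gave 0.077 ± 0.042 (adjusted p = 0.222), with a 95% confidence interval of −0.013 to 0.17. The knockdown comparison gave −0.13 ± 0.042 (adjusted p = 0.0397) and the mean fell by 8.70%. That call was lost in 6 of the 9 fits without 1 sample: without replicate 2 of SC cells at 0.77 cP, without any of the 3 SC samples at 8 cP, or without replicate 2 or 3 of shTRPV4 cells (adjusted p = 0.0504 to 0.111). It was also lost with no filter on low counts (adjusted p = 0.0850). The value itself stayed between −0.14 and −0.12 in the fits without 1 sample.

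BTC, betacellulin, a ligand of EGFR and ERBB4, was at a low level in all samples, with 305 to 438 counts each. Its CPM was 4.25, 4.75 and 3.37 in SC cells at 0.77 cP, 4.05, 4.53 and 4.20 in SC cells at 8 cP, and 3.48, 4.24 and 3.96 in shTRPV4 cells. The groups overlapped in all 3 comparisons and BTC was called in none. Its log2 fold changes were 0.055 with viscosity (95% confidence interval −0.20 to 0.31, adjusted p = 0.791), −0.13 with the knockdown (−0.39 to 0.13, adjusted p = 0.50) and −0.076 across both (−0.34 to 0.19, adjusted p = 0.658). These intervals hold changes as large as those of EREG with viscosity, so a change of that size was not detectable here.

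Compared per length, as CPM per kilobase of the exons of each gene, AREG was the most abundant of the 5 ligand mRNAs in each group. In SC cells at 0.77 cP the order was AREG (172 CPM per kilobase), HBEGF (47.8), TGFA (31.7), EREG (7.85) and BTC (1.56). At 8 cP, TGFA at 33.5 stood above HBEGF at 30.9 in SC cells, and HBEGF at 35.2 stood above TGFA at 30.5 in shTRPV4 cells. The sample ranges of neighbours in these orders did not overlap. The 5 ligands summed to 261 ± 15.5 CPM per kilobase (SD, n = 3) in SC cells at 0.77 cP, 169 ± 11.8 in SC cells at 8 cP and 143 ± 10.1 in shTRPV4 cells. AREG made up 65.8% ± 2.43, 56.6% ± 3.30 and 49.6% ± 3.31 of these sums. The share of TGFA was 12.2% ± 0.756, 19.9% ± 1.52 and 21.4% ± 1.81, and that of HBEGF was 18.4% ± 1.79, 18.4% ± 1.65 and 24.6% ± 1.38. The order and the shares depend on the length used. Per kilobase of the longest coding sequence, AREG at 191 was below TGFA at 330 in SC cells at 8 cP. In shTRPV4 cells AREG at 143 was below TGFA at 302 and HBEGF at 169. By that length TGFA was above HBEGF in each group, at 313 and 229 in SC cells at 0.77 cP and 330 and 148 in SC cells at 8 cP.

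**Figure D3:**
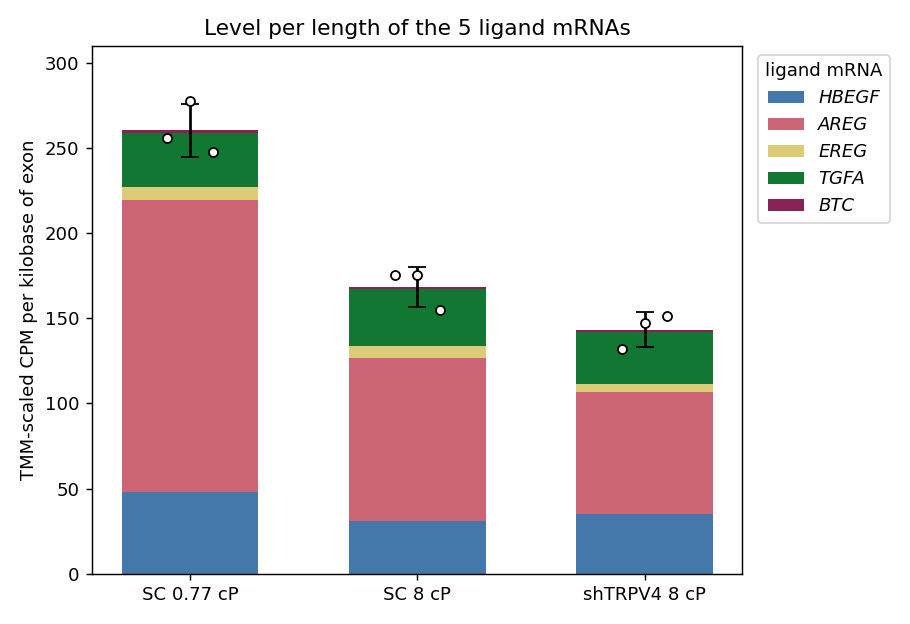
Stacked bars of the mean level of the 5 ligand mRNAs in TMM-scaled CPM per kilobase of exon, by group, with the sum in each of 3 samples (open circles) and its SD (black line). The sum falls from 261 to 169 to 143, and most of the difference is in AREG.

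Among the receptors, EGFR was the most abundant per length in each group, and it was called in the comparison across both steps. It was at 215, 195 and 212 CPM in SC cells at 0.77 cP, at 231, 218 and 225 CPM in SC cells at 8 cP, and at 266, 243 and 234 CPM in shTRPV4 cells. Each group lay just above the one before it without overlap. The viscosity step gave 0.12 ± 0.054 (adjusted p = 0.149) and the knockdown step 0.14 ± 0.054 (adjusted p = 0.0860), and neither was called. The knockdown step was called without replicate 3 of shTRPV4 cells (adjusted p = 0.0419) and with no filter on low counts (adjusted p = 0.0494). From SC cells at 0.77 cP to shTRPV4 cells EGFR rose by 0.25 ± 0.054 (adjusted p = 0.00140), 19.2% in the mean, and this call stood whichever 1 sample was left out. EGFR shares 186 exon bases with the antisense gene EGFR-AS1, and the strand setting of the authors' counting is not given in the sources used here.

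ERBB2, the partner receptor with no known ligand, was nearly level. It was at 94.2, 89.6 and 95.9 CPM in SC cells at 0.77 cP, at 96.8, 95.2 and 94.6 CPM in SC cells at 8 cP, and at 93.8, 92.1 and 94.0 CPM in shTRPV4 cells. The log2 fold changes were 0.034 with viscosity (95% confidence interval −0.055 to 0.12, adjusted p = 0.611), −0.034 with the knockdown (−0.12 to 0.055, adjusted p = 0.630) and 0.00073 across both (−0.088 to 0.090, adjusted p = 0.991). ERBB2 shares 715 exon bases with MIEN1 and PGAP3 on the other strand.

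ERBB3, the receptor for neuregulins, had 291 to 450 counts a sample. It was at 4.52, 4.58 and 4.38 CPM in SC cells at 0.77 cP, at 3.84, 3.61 and 3.21 CPM in SC cells at 8 cP, and at 3.47, 3.72 and 3.79 CPM in shTRPV4 cells. All 6 samples at 8 cP were below the 3 at 0.77 cP, and the groups at 8 cP overlapped. With viscosity it fell by 0.34 ± 0.097 on the log2 scale (adjusted p = 0.0249). This was not called without replicate 1 or 2 of SC cells at 0.77 cP (adjusted p = 0.0867 and 0.0802) or replicate 2 or 3 of SC cells at 8 cP (adjusted p = 0.0637 and 0.142). The knockdown gave 0.042 ± 0.098 (adjusted p = 0.813). From SC cells at 0.77 cP to shTRPV4 cells the change was −0.29 ± 0.097 (adjusted p = 0.0231), a call that was lost without replicate 1 or 2 of SC cells at 0.77 cP or replicate 1 of shTRPV4 cells (adjusted p = 0.0629, 0.0685 and 0.0774) and with no filter on low counts (adjusted p = 0.0591). Per length ERBB3 was the lowest of the 9 members, at 0.384 CPM per kilobase in SC cells at 0.77 cP, beside 13.02 for EGFR and 9.03 for ERBB2.

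ERRFI1, the inhibitor that EGF receptor signals induce, was the most abundant member per length, at 238 CPM per kilobase in SC cells at 0.77 cP, 182 in SC cells at 8 cP and 145 in shTRPV4 cells. It was at 974, 1075 and 940 CPM in SC cells at 0.77 cP, at 773, 782 and 731 CPM in SC cells at 8 cP, and at 587, 612 and 624 CPM in shTRPV4 cells. The 3 groups were stepped down with wide gaps between them. It fell by 23.6% in the mean with viscosity, a log2 fold change of −0.39 ± 0.053 (adjusted p = 0.000269). With the knockdown the mean fell by 20.2% more, −0.33 ± 0.053 (adjusted p = 0.000491). Across both steps the log2 fold change was −0.71 ± 0.053 (adjusted p = 9.47e-08). All 3 calls stood whichever 1 sample was left out, with viscosity values between −0.42 and −0.32. ERRFI1 overlaps an opposite-strand gene by 155 exon bases.

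Over the 9 samples, the log2 levels of ERRFI1 followed those of AREG (Pearson r = 0.980) and EREG (r = 0.953) closely, and those of AREG and EREG went together with r = 0.895. HBEGF went with AREG at r = 0.763 and with EREG at r = 0.450, and EGFR ran opposite to ERRFI1 at r = −0.914. These values describe 9 samples that fall into 3 groups and share their scaling, and carry no test. Over the 12788 genes that averaged 1 CPM or more, the genes whose pattern was most like that of AREG were the keratin KRT81 (r = 0.994) and the membrane protein TM4SF1 (r = 0.994). Most like EREG were APLP2 (r = 0.998) and the non-coding LINC00261 (r = 0.996). Most like ERRFI1 were MCL1, an anti-apoptotic protein (r = 0.994), and DLG3 (r = 0.993). Most like HBEGF were PRSS22 (r = 0.977) and TNFAIP3, an inhibitor of NF-kappaB (r = 0.968). By Spearman correlation KRT81, APLP2 and MCL1 still ranked 1 for their member, while PRSS22 and TNFAIP3 ranked 17, TM4SF1 and DLG3 55, and LINC00261 67.

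Of the other receptors and ligands of the family, 3 of 7 were tested. EGF itself averaged 3.14 ± 0.196 CPM in SC cells at 0.77 cP, 3.86 ± 0.108 in SC cells at 8 cP and 2.43 ± 0.244 in shTRPV4 cells. It was lower with the knockdown by −0.67 ± 0.11 (adjusted p = 0.000469), while the viscosity comparison gave 0.29 ± 0.11 (adjusted p = 0.0625), which was called without replicate 1 of shTRPV4 cells. Across both steps EGF fell by 0.37 ± 0.11 (adjusted p = 0.0119), a call lost without replicate 1 of SC cells at 0.77 cP or replicate 1 of shTRPV4 cells (adjusted p = 0.0512 and 0.0555). NRG1, a neuregulin that binds ERBB3 and ERBB4, was at 66.8, 67.3 and 73.0 CPM in the 3 groups, and its log2 fold changes were 0.0093 with viscosity, 0.12 with the knockdown (adjusted p = 0.185) and 0.13 across both (adjusted p = 0.10). NRG1 was called higher with the knockdown without replicate 3 of SC cells at 8 cP (adjusted p = 0.0471), and across both without replicate 3 of SC cells at 0.77 cP (adjusted p = 0.0385). NRG2 was near 1 CPM in all groups and was not called. The receptor ERBB4 had 0 to 6 counts a sample and the ligands EPGN, NRG3 and NRG4 had 0 to 10, 0 to 1 and 0 to 4, too few to be tested. EPGN was thus near 0 while its neighbours EREG and AREG had 2140 counts or more in every sample.

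The proteases and helpers that release the ligands were counted on a list of 9 genes, all tested. With viscosity, 2 were lower and 7 were not called: TIMP3, an inhibitor of ADAM17, went from 614 ± 21.0 to 454 ± 40.4 CPM (−0.44 ± 0.073, adjusted p = 0.00146) and RHBDF2, an iRhom that guides ADAM17, from 49.8 ± 3.10 to 41.1 ± 2.68 CPM (−0.28 ± 0.058, adjusted p = 0.00500). With the knockdown, 1 was higher and 3 were lower, of which ADAM9 fell by 0.25 ± 0.042 (adjusted p = 0.000662), RHBDF1 by 0.21 ± 0.052 (adjusted p = 0.0116) and ADAM15 by 0.14 ± 0.040 (adjusted p = 0.0220). That count of 4 was 2 without replicate 2 or without replicate 3 of SC cells at 8 cP. The ADAM15 call was lost without any of the SC samples at 8 cP, without replicate 2 of shTRPV4 cells (adjusted p = 0.0581 to 0.0952) or with no filter on low counts (adjusted p = 0.0511). Across both steps 6 were lower and 1 was higher, with a median of −0.22. The 2, 4 and 7 called of 9 stand beside 19.3%, 20.0% and 42.4% of all genes. No ADAM gene was called with viscosity, and TIMP3 was not called with the knockdown (−0.056, adjusted p = 0.65). The genes lower across both steps held ADAM proteases as well as TIMP3.

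Of the genes that remove or restrain the receptors, 22 were tested, and 3 were higher and 2 lower with viscosity, 4 higher and 4 lower with the knockdown, and 8 higher and 5 lower across both, with medians of 0.079, 0.033 and 0.035. The 5, 8 and 13 called of 22 stand beside 19.3%, 20.0% and 42.4% of all genes, which also moved in both directions. LRIG1, a membrane protein that promotes the breakdown of ERBB receptors, was at 28.7 ± 0.384 CPM in SC cells at 0.77 cP, 34.4 ± 0.395 in SC cells at 8 cP and 64.8 ± 1.14 in shTRPV4 cells (SD, n = 3). It rose by 0.26 ± 0.044 with viscosity (adjusted p = 0.00152) and by 0.92 ± 0.043 with the knockdown (adjusted p = 4.31e-09), and it shares 2669 exon bases with SLC25A26 on the other strand. With viscosity the ubiquitin ligase CBLB fell by 0.44 ± 0.077 (adjusted p = 0.00191) and SOCS4 rose by 0.30 ± 0.055 (adjusted p = 0.00245). With the knockdown CD2AP, an adaptor of receptor uptake, rose by 0.56 ± 0.044 (adjusted p = 6.14e-07). The phosphatase PTPRJ fell with the knockdown by 0.31 ± 0.043 (adjusted p = 0.000147). CBLB shares 214 exon bases, and CD2AP 372, with genes on the other strand. The viscosity count of 5 was 3 without replicate 2 of SC cells at 0.77 cP or replicate 2 or 3 of SC cells at 8 cP, 8 without replicate 3 of SC cells at 0.77 cP, and 9 without replicate 1 of shTRPV4 cells or with DESeq2.

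Of the adaptors and kinases that relay the signal, 30 were tested, and 2 were higher and 3 lower with viscosity, 1 higher and 5 lower with the knockdown, and 6 higher and 9 lower across both, with medians of 0.029, −0.067 and −0.063. The 5, 6 and 15 called of 30 stand beside 19.3%, 20.0% and 42.4% of all genes, and nothing particular to the list was read from them. The viscosity count of 5 was 2, 2 and 1 without replicate 1 or 2 of SC cells at 0.77 cP or replicate 3 of SC cells at 8 cP, and 8 without replicate 1 of shTRPV4 cells. The count of 15 across both steps was 9 without replicate 2 of shTRPV4 cells. With viscosity MAPK3, which encodes ERK1, fell by 0.33 ± 0.058 (adjusted p = 0.00200). The phosphatase PTPN11 rose by 0.26 ± 0.061 (adjusted p = 0.00959) and STAT5A fell by 0.28 ± 0.068 (adjusted p = 0.0117). PTPN11 was not called without replicate 1 of SC cells at 0.77 cP or replicate 3 of SC cells at 8 cP (adjusted p = 0.0546 and 0.0530), nor STAT5A without replicate 2 of SC cells at 0.77 cP or replicate 3 of SC cells at 8 cP (adjusted p = 0.0577 and 0.0821). With the knockdown the adaptors GAB2 and SHC1 fell by 0.34 ± 0.065 (adjusted p = 0.00177) and 0.23 ± 0.049 (adjusted p = 0.00361), and PLCG1 rose by 0.24 ± 0.048 (adjusted p = 0.00259). SHC1 shares 326 exon bases, PLCG1 614 and GAB2 95 with genes on the other strand. PTPN11 shares 111 with RPL6 there, and STAT5A 415 with STAT5B. On the same strand SHC1 shares 335 exon bases with another gene, and PLCG1 111.

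Most of the genes that EGF is known to induce through ERK were lower with viscosity. Of 22 tested, 15 were lower and 1 higher with viscosity, 7 lower and 1 higher with the knockdown, and 17 lower and 2 higher across both, with medians of −0.31, −0.14 and −0.73. In the same comparisons 9.69%, 11.0% and 22.0% of all genes tested were lower, and 9.57%, 9.02% and 20.4% higher. Falls of some of these genes were known from earlier results of these samples when the list was written, so its counts are not independent evidence of a direction. FOSB, an AP-1 subunit, went from 21.9 ± 1.92 to 1.00 ± 0.177 CPM with viscosity (−4.45 ± 0.12, adjusted p = 6.81e-13) and was at 0.976 ± 0.0727 CPM in shTRPV4 cells. The phosphatases DUSP1 and DUSP5 switch off MAP kinases. Their log2 fold changes with viscosity were −2.23 ± 0.092 (adjusted p = 1.81e-10) and −1.54 ± 0.053 (adjusted p = 2.22e-11). The fall was not shared by the whole list. Of the 22, 6 were not called with viscosity and lay between −0.12 and 0.13. The 1 called higher with viscosity was FOSL1, at 0.18 ± 0.058 (adjusted p = 0.0411). With the knockdown the leading genes were others: SPRY4, an inhibitor of receptor signals, fell by 0.64 ± 0.044 (adjusted p = 1.64e-07), DUSP6, a phosphatase of ERK, by 0.57 ± 0.059 (adjusted p = 8.55e-06), and FOSL1, another AP-1 subunit, rose by 0.54 ± 0.058 (adjusted p = 1.16e-05). The knockdown count of 8 was 5 without replicate 1 of SC cells at 8 cP or replicate 2 of shTRPV4 cells, and DUSP6 overlaps an opposite-strand gene by 1105 exon bases. Several of the genes that fell, the DUSP and SPRY genes among them, are themselves brakes on the ERK route, as is ERRFI1 on the receptor.

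**Figure D4:**
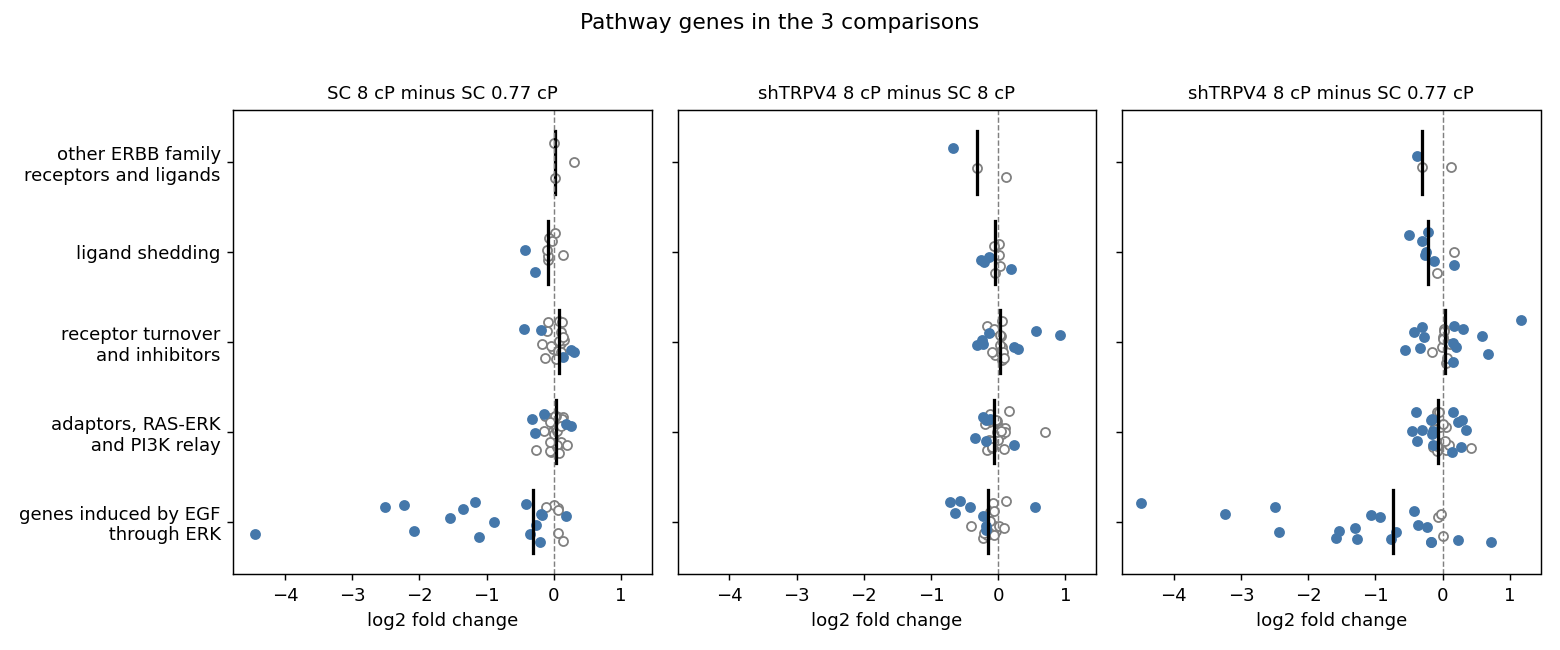
Log2 fold change of each tested gene of 5 pathway lists (circles, spread vertically so that they can be seen) in the 3 comparisons, with the median of each list as a black bar. Filled circles were called over all genes tested, and the genes induced by EGF through ERK reach −4.45 with viscosity while the relay genes stay between −0.33 and 0.26.

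Across both steps the named genes of each list were largely those named for a single step. LRIG1 rose by 1.17 ± 0.044 (adjusted p = 3.75e-11), CD2AP by 0.67 ± 0.044 (adjusted p = 2.16e-08) and SOCS4 by 0.59 ± 0.055 (adjusted p = 9.17e-07). FOSB fell by 4.49 ± 0.12 (adjusted p = 7.53e-13), DUSP1 by 2.43 ± 0.093 (adjusted p = 4.96e-11) and DUSP5 by 1.53 ± 0.053 (adjusted p = 1.52e-11). MAPK3 fell by 0.45 ± 0.058 (adjusted p = 2.17e-05) and SHC1 by 0.38 ± 0.049 (adjusted p = 1.90e-05), and PLCG1 rose by 0.30 ± 0.048 (adjusted p = 0.000144). TIMP3 fell by 0.49 ± 0.073 (adjusted p = 7.49e-05), RHBDF1 by 0.31 ± 0.053 (adjusted p = 0.000237) and ADAM9 by 0.24 ± 0.042 (adjusted p = 0.000313).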

How the data were processed

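The 9 samples of MDA-MB-231 RNA form 3 groups of 3, taken from the sample titles and characteristics. Per the labels and methods, poly(A) RNA was made into directional libraries and read in pairs, and the authors aligned reads to GRCh38 with HISAT2 2.2.1, counted them per Ensembl gene with HTSeq 0.13.5 and deposited raw counts per gene. SAMtools 1.1.3 and DESeq are also named in the submitters' processing notes. The strand option of the counting is not given in the sources used here. Lines without a gene were left out.

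Counts were analysed in R 4.3.3 with edgeR 4.0.16 (TMM, filterByExpr, quasi-likelihood test, 1 coefficient per group) and tested on simulated data. Totals were 64571681 to 103518036 counts a sample, and the common biological coefficient of variation was 0.0633. CPM and confidence intervals cover these samples only. Levels between genes were compared per kilobase of exon union (GENCODE 44). The genes named were the 9 members, TRPV4, the other family members, of each list the 3 called genes lowest in adjusted p in each comparison, and the 2 genes most like each member called at 0.5 or more on the log2 scale (prior count 2). Members and lists were chosen with earlier results of these data known. Alternatives were upper quartile and RLE scaling, DESeq2 1.42.0, no filter, a minimum of 10 counts in each sample, a fit to the 6 samples of a comparison, a replicate block, an added threshold of 0.5, other gene lengths, Spearman correlation or a prior count of 0.5 for likeness, and leaving out each sample. Protein sequences were not used here. Some genes of the marker lists are not reported here.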

Additional observations from a re-analysis of the deposited data

How the results depend on the processing

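Of 432 refits of the members' fold changes, 402 kept their direction and their side of the threshold, 20 lost a call, 2 gained one and 8 changed sign, and of 749 refits of other named genes 727 kept both, 11 lost a call, 3 gained one and 8 changed sign. When calls also needed a change of 0.5 on the log2 scale, 698 genes (88 higher) and 2 members were called with viscosity, 959 genes and 1 member with the knockdown, and 2426 genes (832 higher) and 3 members across both. Without 1 sample, the viscosity comparison called 1409 to 4349 genes and 3 to 5 members, and the knockdown comparison 2179 to 3836 genes and 3 to 5 members. The lowest viscosity counts came without replicate 1 of SC cells at 0.77 cP (1409), replicate 3 of SC cells at 8 cP (1418) and replicate 2 of SC cells at 0.77 cP (1927), and the lowest knockdown counts without replicates 2 (2179) and 1 (2361) of SC cells at 8 cP. The cause was not tested. Signs changed for values near 0 in the fit to all samples: without 1 sample, BTC ranged from −0.065 to 0.17 with viscosity and from −0.20 to 0.037 across both, TRPV4 from −0.33 to 0.27, NRG1 from −0.049 to 0.060 (−0.00038 with upper quartile scaling) and NRG2 from −0.066 to 0.12 with viscosity, ERBB3 from −0.026 to 0.10 with the knockdown, and ERBB2 from −0.020 to 0.030 across both, where it was also −0.015 with upper quartile scaling. Per kilobase of the longest coding sequence, 4 of the 9 members kept their rank in SC cells at 0.77 cP, and with the longest transcript 9 did. The likeness of PRSS22 and TNFAIP3 to HBEGF was 0.90 by Spearman correlation, where both ranked 17. Scaling moved the median of all genes by at most 0.016.

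Neither the labels nor the methods say what the replicate numbers stand for. Same-numbered samples of different groups had deviations that correlated between −0.055 and 0.090 (9 pairs), beside −0.106 to 0.115 for the 18 other pairs. Of the 9 samples, 2 correlated best with their own number. These correlations cannot tell whether the numbers pair samples. With the replicate number as a block, 3475, 3607 and 7731 genes and 5, 5 and 6 members were called in the 3 comparisons.

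ERBB3 and BTC had the lowest counts of the members, 291 to 450 and 305 to 438 a sample.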
